A study of Rattus norvegicus with 9 samples.

Results

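Glycolytic enzymes from aldolase to lactate dehydrogenase were followed in the retina of rats with and without diabetes. The members are 10 genes (Aldoa, Aldoc, Tpi1, Gapdh, Pgk1, Eno1, Eno2, Pkm, Ldha and Ldhb), and every probe whose symbol in the array's annotation is one of them was taken. Of these genes 8 have a probe, 1 each, of 22226 probes and 12978 named genes in all. No probe is named for Tpi1 or Gapdh in the annotation used here, so neither enzyme was analysed. Retinal transcripts were measured in male Sprague-Dawley rats 3 months after streptozotocin (STZ), given into the peritoneum at 65 mg/kg to the diabetic group, or after the citrate vehicle alone, given to the control group. STZ is a toxin of pancreatic beta cells, the source of insulin, and only rats whose blood glucose stayed above 250 mg/dL were kept as diabetic. There were 5 control and 4 diabetic retinal samples, with 1 RatRef-12 BeadChip array (Illumina) per rat. A further diabetic array had been dropped at quality control before deposit. Whole retina was used, so every value averages over all of its cell types, and fewer cells of a type cannot be told apart from less RNA per cell. Controls 1 to 3 were run on BeadChip 1, whereas controls 4 and 5 shared BeadChip 2 with all of the diabetic retinas.

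Glycolysis cleaves phosphorylated glucose into triose phosphates and turns these into pyruvate, which lactate dehydrogenase exchanges with lactate. The retina is known for making lactate from glucose even with oxygen at hand, and photoreceptors are the cells held to do most of it. Several steps have alternative enzymes: aldolase C and enolase 2 are the forms typical of nervous tissue, aldolase A and enolase 1 are widespread, and the A and B subunits of lactate dehydrogenase mix in its tetramer.

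None of the measured enzyme transcripts passed the test between diabetic and control retinas, although the mean of every one was lower in diabetes. All 8 were detected, with a detection p of 0 on 9 of 9 arrays. The dimmest, Pkm, had a mean level above that of 70.6% of tested probes. At an adjusted p under 0.05 (limma, Benjamini-Hochberg adjustment over 10261 probes), 0 of 8 were called, against 9.30% of all tested probes. At an unadjusted p under 0.05 there were 2 (Eno2 and Ldhb, both lower), against 14.5% of all probes called lower in that way. By the criteria of the study's methods, which ask for an unadjusted p under 0.05 and a 1.2-fold difference, 0 of 8 were called, against 9.34% of all probes. The log2 difference, diabetic minus control, ran from -0.18 to -0.04 with a median of -0.14, beside a median of -0.01 over all tested probes. The diabetic mean was lower for 8 of 8 enzymes and for 57.8% of all probes, but once arrays were only scaled to a common median it was lower for 6 of 8 and for 46.9%, with 0 of 8 called against 0.750%. The 2 groups overlapped for 8 of 8 enzymes, while they did not overlap for 13.0% of all probes. On a percent scale the widest interval was that of Pkm, from -30.4% to 15.4%, and that of Pgk1 ran from -13.2% to 2.95%.

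**Figure D1:**
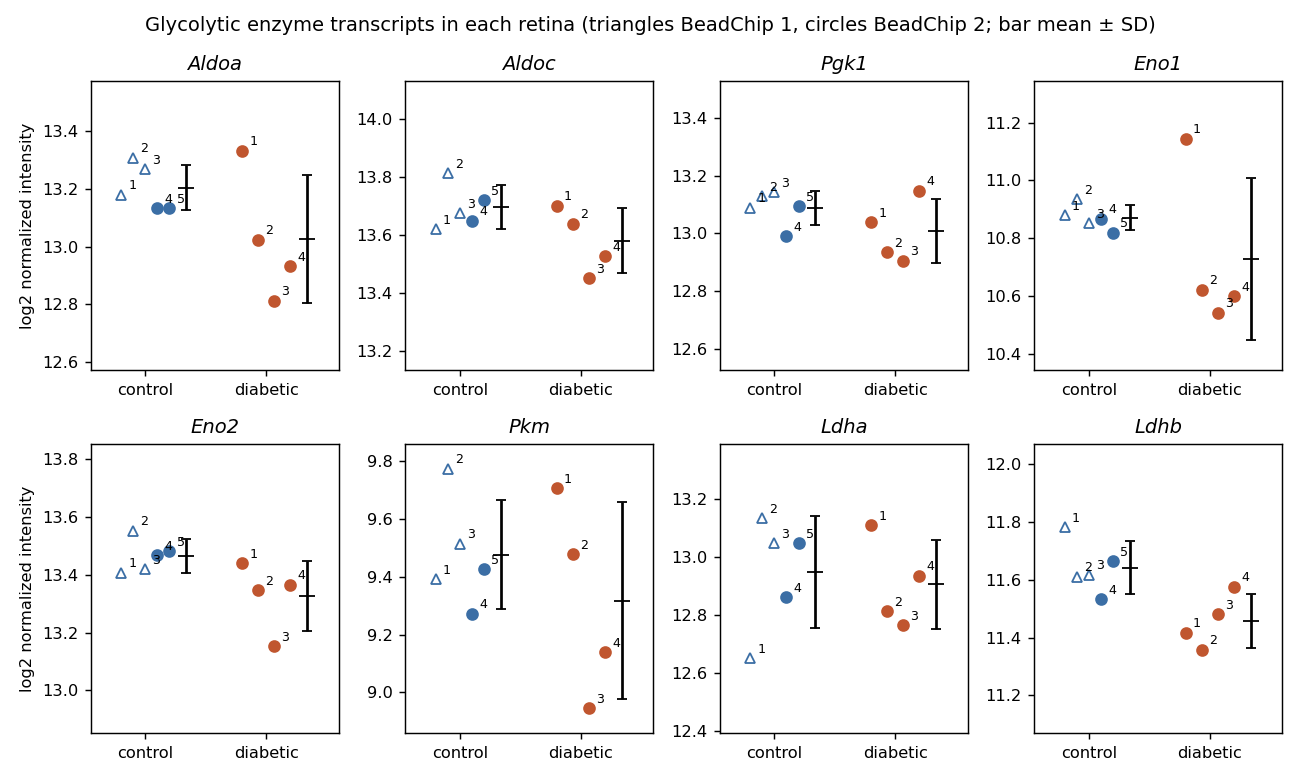
Log2 normalized intensity of the 8 measured enzyme transcripts (y axis, arbitrary units, each panel spanning the same width of 1) in each control and diabetic retina (x axis; numbers name the rats, triangles are BeadChip 1, circles BeadChip 2, bars are mean ± SD). The groups overlap in every panel, and diabetic retina 1 lies above the other diabetic retinas for Aldoa, Aldoc, Eno1, Eno2, Pkm and Ldha.

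Hypoxia-inducible factor 1 (HIF-1) is the best known inducer of glycolytic genes. Of its core letters only the form ACGTG was sought, on both strands of the 250 bases before each start of transcription. Starts were those of RefSeq's annotation of the rat genome GRCr8. Other forms of the core were not counted. A promoter was given for 9 of the 10 members, not for Pgk1, with 12 starts in all. The letters stood in 5 of these 12 promoters, 1 each of Aldoa, Aldoc, Gapdh, Eno2 and Ldha, and in 16.6% of 33469 promoters of the same length. Sequences of 4 members are shown because their readouts differed most. Aldoa and Eno1 were called only when diabetic retina 1 was left out, and Ldha and Ldhb had the smallest and the largest difference. Capitals mark ACGTG or, on the other strand, CACGT.
Aldoa (chr1:190836778-190837027, minus strand): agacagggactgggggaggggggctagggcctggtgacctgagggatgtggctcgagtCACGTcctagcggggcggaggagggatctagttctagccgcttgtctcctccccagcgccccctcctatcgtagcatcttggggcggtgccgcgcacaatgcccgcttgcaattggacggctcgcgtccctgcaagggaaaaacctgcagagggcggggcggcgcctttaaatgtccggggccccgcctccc
Eno1 (chr5:166003111-166003360, plus strand): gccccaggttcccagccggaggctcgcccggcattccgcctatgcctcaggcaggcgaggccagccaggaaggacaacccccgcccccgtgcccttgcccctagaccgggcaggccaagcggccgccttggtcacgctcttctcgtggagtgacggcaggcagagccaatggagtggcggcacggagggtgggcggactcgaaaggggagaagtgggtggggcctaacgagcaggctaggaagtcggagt
Ldha (chr1:106507842-106508091, plus strand): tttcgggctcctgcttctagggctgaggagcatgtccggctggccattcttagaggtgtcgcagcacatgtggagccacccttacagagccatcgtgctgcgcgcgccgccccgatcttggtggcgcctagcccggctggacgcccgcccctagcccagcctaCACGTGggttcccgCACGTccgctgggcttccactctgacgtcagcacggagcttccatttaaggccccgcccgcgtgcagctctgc
Ldhb (chr4:177177409-177177658, minus strand): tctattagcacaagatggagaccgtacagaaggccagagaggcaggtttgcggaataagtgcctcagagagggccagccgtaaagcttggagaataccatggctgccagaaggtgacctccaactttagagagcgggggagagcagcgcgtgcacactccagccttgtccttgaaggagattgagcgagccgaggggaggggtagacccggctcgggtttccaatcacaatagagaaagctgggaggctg
Ldha held 3 matches, whose first bases lay 87, 86 and 73 bases before the start. The first pair overlaps in the E-box CACGTG, a motif found in 5.59% of promoters, which reads alike on both strands. Aldoa held 1 match, 192 bases before the third of its starts, while the windows of Eno1 and Ldhb held no ACGTG on either strand. Another form, GCGTG, can be read in the printed windows of Ldha and Ldhb, and on the other strand (CACGC) in that of Eno1. How often that form stands in other promoters was not counted, so Eno1 and Ldhb are not windows free of the core. A match describes letters only, and with or without it the retinal transcripts overlapped between groups.

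Aldolase, which cleaves fructose bisphosphate, was read through both of its retinal isoforms. Aldoa had log2 normalized intensities of 13.18, 13.31, 13.27, 13.13 and 13.13 in control retinas 1 to 5 and of 13.33, 13.02, 12.81 and 12.93 in diabetic retinas 1 to 4. Diabetic retina 1 was thus the highest of all 9, and the other diabetic retinas lay below every control. The difference was -0.18 (SE 0.10, 95% interval -0.40 to 0.04, adjusted p = 0.294, limma). Aldoc, the form of nervous tissue, stood at 13.62, 13.81, 13.68, 13.65 and 13.72 in the controls and at 13.70, 13.64, 13.45 and 13.53 in the diabetic retinas. Diabetic retinas 3 and 4 were below every control and the remaining pair was among them, for a difference of -0.12 (SE 0.06, interval -0.25 to 0.02, adjusted p = 0.262, limma).

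Phosphoglycerate kinase 1, encoded by Pgk1, makes the first ATP of the pathway. Its control values were 13.09, 13.13, 13.14, 12.99 and 13.09, and its diabetic values were 13.04, 12.94, 12.91 and 13.15. The highest of all retinas was diabetic retina 4, and the lowest was diabetic retina 3. This transcript differed by -0.08 (SE 0.05, interval -0.21 to 0.04, adjusted p = 0.403, limma).

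Enolase forms phosphoenolpyruvate, and its isoforms behaved unlike in their spread. Eno1, the widespread form, was tight in the controls, at 10.88, 10.94, 10.85, 10.87 and 10.82. In the diabetic retinas it stood at 11.14, 10.62, 10.54 and 10.60, so that diabetic retina 1 was above and the other 3 were below every control. The deposited intensities, before any normalization, showed the same split within the diabetic group, with 2724 in retina 1 and 1605 to 1829 in the others. Control retinas had 1680 to 2400 there, a range that held diabetic retina 3 (1829). The log2 values had an SD of 0.28 across the diabetic and of 0.04 across the control retinas, and the difference was -0.14 (SE 0.11, interval -0.40 to 0.12, adjusted p = 0.488, limma).

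Eno2, the neuronal enolase, read 13.41, 13.55, 13.42, 13.47 and 13.48 in the controls and 13.44, 13.35, 13.15 and 13.37 in the diabetic retinas. All 4 diabetic values were below the control mean and 3 were below every control. Its difference of -0.14 (SE 0.06, interval -0.27 to -0.01) had an unadjusted p of 0.0403 and an adjusted p of 0.174 (limma).

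Pyruvate kinase, the last step to pyruvate, had the largest SD of the 8 among diabetic retinas (0.34), while among controls that of Ldha (0.19) was as large. Pkm had values of 9.39, 9.77, 9.51, 9.27 and 9.43 in control and of 9.71, 9.48, 8.95 and 9.14 in diabetic retinas. Diabetic retinas 3 and 4 were the lowest of all, whereas retinas 1 and 2 lay within the control range. The difference of -0.16 (SE 0.16, interval -0.52 to 0.21, adjusted p = 0.597, limma) was about as large as its standard error. It was -0.29 without diabetic retina 1, -0.08 without control 2, -0.10 without diabetic retina 4, -0.04 without diabetic retina 3 and -0.03 with the BeadChip as a block. That block sets the diabetic retinas against the controls of BeadChip 2 only. The probe's name does not say which splice form, M1 or M2, it reads.

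Lactate dehydrogenase was read through both subunits. Ldha, the subunit linked to lactate production, had values of 12.65, 13.13, 13.05, 12.86 and 13.05 in control and of 13.11, 12.81, 12.76 and 12.94 in diabetic retinas. Every diabetic value lay within the control range, and the difference was -0.04 (SE 0.11, interval -0.29 to 0.21, adjusted p = 0.855, limma), turning to 0.03 with median scaling. Ldhb, the subunit linked to lactate use, had 11.78, 11.61, 11.62, 11.53 and 11.67 in control and 11.42, 11.36, 11.48 and 11.58 in diabetic retinas. For this subunit diabetic retinas 1 to 3 were below every control, and retina 4 was above control 4 alone. Ldhb had the largest difference of the 8, -0.18 (SE 0.06, interval -0.32 to -0.05), with an unadjusted p of 0.0124 and an adjusted p of 0.0880 (limma). Over 19 alternative settings its difference ran from -0.22 to -0.14, and its adjusted p from 0.0533 to 0.764.

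Each value was also taken relative to the control mean of its own gene, and the 8 were averaged in each retina. This average was -0.05, 0.11, 0.02, -0.08 and -0.00 in control retinas 1 to 5, and 0.06, -0.15, -0.29 and -0.15 in diabetic retinas 1 to 4. Diabetic retina 3 was the lowest of all 9 for 6 of the 8 transcripts, and control 2 was the highest for 4. Diabetic retina 1 was the only diabetic retina whose average exceeded that of the control group. Its array also had the highest median deposited intensity, 87.9 against 70.0 to 84.4 in the others, and the lowest mean correlation with its own group over tested probes, 0.988 against 0.991 to 0.995. The genes outside the list whose centred values over the 9 retinas lay closest to this average were Peli3, Srsf11, Cygb, Arfip2 and Prkcsh. Their root mean square difference from it was 0.0418 to 0.0476 on the log2 scale, and the median over 7233 genes was 0.140. The enzymes themselves, which make up the average, lay at 0.0440 (Aldoc), 0.0492 (Eno2), 0.0617 (Aldoa), 0.0889 (Pgk1), 0.0980 (Eno1), 0.111 (Ldha), 0.141 (Ldhb) and 0.148 (Pkm). Ldhb and Pkm were thus no closer to it than the median gene, and Ldhb stood at -0.22 in diabetic retina 1, where the average was 0.06.

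Leaving out diabetic retina 1 changed the call for 2 enzymes. Without it, Aldoa was lower by -0.28 on the log2 scale (adjusted p = 0.0337, limma) and Eno1 by -0.28 (adjusted p = 0.00522, limma), in 3 of 3 remaining diabetic retinas. These were 2 of 8 members called lower, against 3.17% of 10375 probes in the same fit. The median of the 8 was then -0.18. For Aldoa and Eno1, diabetic retina 1 was above every control and the other 3 were below every control. Leaving it out thus fixed the 3 of 3 and lowered the spread, so these calls are no separate evidence of a decrease. Without diabetic retina 3, the lowest one, none was called. Within BeadChip 2, which compares 4 diabetic with 2 control retinas, the differences were -0.15 to -0.03 with a median of -0.11 and 0 of 8 were called (lowest adjusted p 0.456, limma), against 0.103% of 10725 probes. With the BeadChip as a block 0 of 8 were called, against 1.74%. This is not a separate check, because BeadChip 1 holds controls only. The block's differences rest on the same 4 diabetic and 2 control retinas, and the other controls enter only the estimate of spread. With a replicate block 0 of 8 were called, against 2.50%.

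**Figure D2:**
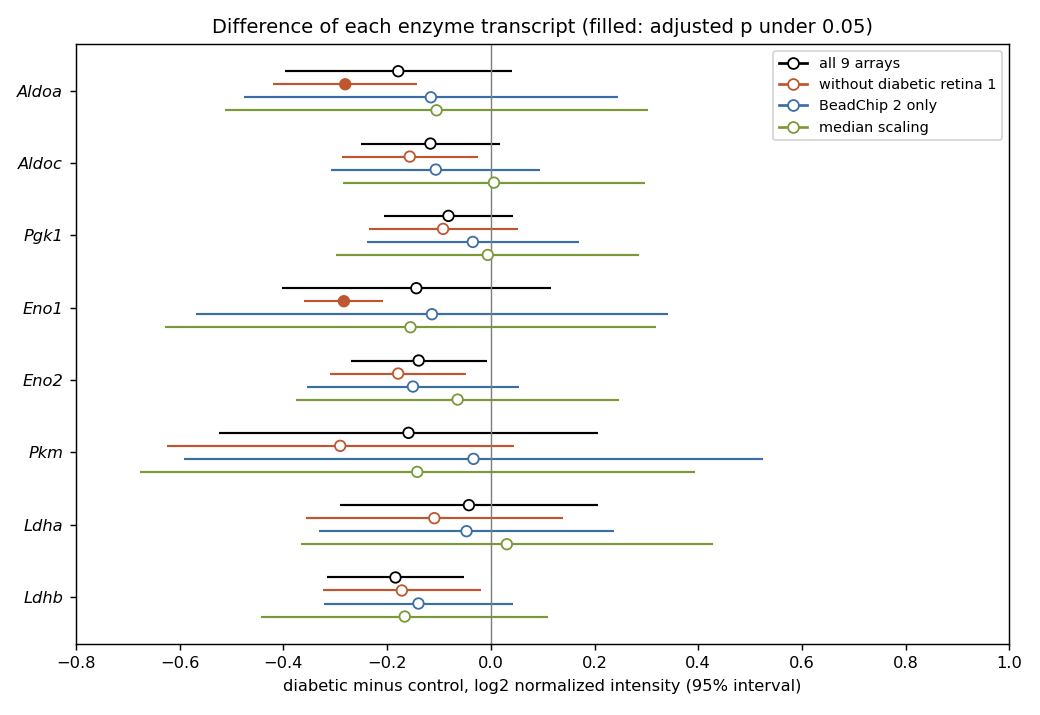
Diabetic minus control difference of each enzyme transcript (x axis, log2 normalized intensity; bars are 95% intervals) with all 9 arrays, without diabetic retina 1, on BeadChip 2 alone and with median scaling. Filled points have an adjusted p under 0.05, which are those of Aldoa and Eno1 (both -0.28) without diabetic retina 1; with median scaling Aldoc (0.01) and Ldha (0.03) lie above 0.

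Whether the isoforms of a step changed by unequal amounts was asked from the difference of their log2 values within each retina. The Aldoa minus Aldoc value was -0.49 ± 0.07 (SD, n = 5) in the control retinas and -0.55 ± 0.12 (SD, n = 4) in the diabetic ones, a shift of -0.06 (95% interval -0.22 to 0.09; exact permutation p = 0.349, adjusted over 3 pairs 0.667). Without diabetic retina 1, whose value was the highest, this shift was -0.12 (exact permutation p = 0.0536, adjusted 0.134), and with the BeadChip as a block it was -0.0029. That block uses only the controls of BeadChip 2. Eno1 minus Eno2 was -2.59 ± 0.05 (SD, n = 5) and -2.60 ± 0.21 (SD, n = 4), with a shift of -0.00 (interval -0.23 to 0.22; exact permutation p = 0.984, adjusted 0.984). Ldha minus Ldhb was 1.31 ± 0.26 (SD, n = 5) and 1.45 ± 0.18 (SD, n = 4), a shift of 0.14 (interval -0.22 to 0.50; exact permutation p = 0.444, adjusted 0.667). The tests were two-sided over all assignments of the 9 retinas to groups of these sizes, whose smallest possible p is 0.00794. None of the pairs moved apart by more than the spread between retinas, and the intervals leave room for shifts of about the size seen for the single transcripts. Control retina 1, at 0.87, was far below the other controls (1.33 to 1.52) for the lactate dehydrogenase pair, having the lowest Ldha and the highest Ldhb of the 9. Without it the shift was 0.03, and without diabetic retina 1 it was 0.06. Values of unlike probes have no common scale, so only changes of such a difference between retinas can be read.

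**Figure D3:**
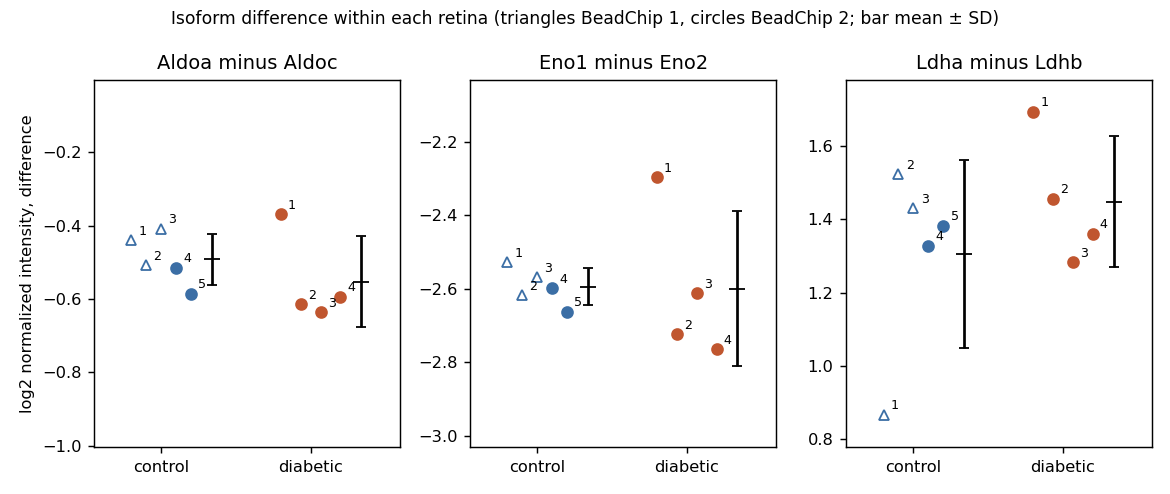
Difference of log2 normalized intensity between the isoforms of aldolase, enolase and lactate dehydrogenase (y axis, each panel spanning the same width of 1) within each control and diabetic retina (x axis; numbers name the rats, triangles BeadChip 1, circles BeadChip 2, bars mean ± SD). Diabetic retina 1 is highest in every panel (-0.37, -2.30 and 1.69), and the group means differ by -0.06, -0.00 and 0.14.

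Steps before aldolase gave 0 of 6 tested genes called. Of the 15 genes of this list 13 have a probe. Not detected were Slc2a1, Hk3, Pfkfb1, Pfkfb2, Pfkfb3, Pfkfb4 and Tigar. Slc2a3 was tested at low values, 7.04 to 7.09 in the controls. All counts over lists can be set beside the 9.30% of tested probes that were called in either direction. Gpi, which interconverts glucose and fructose phosphates, had the smallest p: it read 13.93, 13.98, 13.98, 14.02 and 13.99 in controls 1 to 5 and 13.64, 13.89, 13.57 and 13.92 in diabetic retinas 1 to 4. Every diabetic retina was below every control, by -0.23 on average (SE 0.07, adjusted p = 0.0943, limma), and it was called only without diabetic retina 4 (adjusted p = 0.0417). In this list Hk2 (8.56) and the subunits Pfkl (11.19), Pfkm (10.18) and Pfkp (12.64) of the rate-limiting phosphofructokinase were highest in diabetic retina 1. Aldoa and Eno1 were likewise highest there of all 9, while Slc2a3 and Gpi were not. The upstream genes other than Gpi were named after their values were seen.

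The phosphoglycerate mutases, between Pgk1 and enolase, gave 0 of 2 called. Those tested were Pgam2 and Bpgm, while Pgam5 was not detected and Pgam1 was not among the genes read. The step was thus measured only in part. Pgam2, the muscle form, had low values, 7.02 to 7.11 in control and 7.11 to 7.28 in diabetic retinas. The groups narrowly did not overlap, with the highest control at 7.106 and the lowest diabetic retina at 7.107. When a detection p under 0.01 was required, Pgam2 was not tested. Its difference was 0.13 (adjusted p = 0.0627, limma), and 0.57 (adjusted p = 0.0198) in the authors' processed values, which lack the background correction used here. Among enzyme isoforms typical of other tissues 0 of 4 were called, the smallest p being that of Ldhd, the mitochondrial D-lactate dehydrogenase (-0.10, adjusted p = 0.259, limma). The carriers of pyruvate and lactate and the gate into mitochondria gave 0 of 9, with the smallest p for Mpc2, a subunit of the mitochondrial pyruvate carrier (-0.12, adjusted p = 0.114, limma). Regulators of the pathway gave 0 of 8. The smallest p was that of Vhl, which marks the oxygen-sensitive HIF subunits for degradation (0.10, adjusted p = 0.208, limma). Hif1a, such a subunit, was at 0.11 (adjusted p = 0.447, limma; chosen after its value was seen).

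Calls in the pathway lists came only from the shuttles and from gluconeogenesis and glycogen turnover, against 9.30% of all tested probes. These counts are too small to place the change in a part of the pathway. In the shuttles that carry the electrons of glycolytic NADH, 1 of 7 genes rose and 1 fell. Gpd1, which turns the aldolase product dihydroxyacetone phosphate into glycerol phosphate, was at 7.29, 7.39, 7.19, 7.17 and 7.30 in control and at 8.36, 8.43, 8.58 and 7.97 in diabetic retinas. All diabetic retinas were higher than all controls, and the difference was 1.07 (SE 0.11, adjusted p = 0.00238, limma). Gpd1 was at low intensity in the controls. Over the 19 alternatives its difference ran from 0.93 to 1.63, the highest in the authors' processed values. Got1, the cytosolic aminotransferase of the malate-aspartate shuttle, was at 12.85 to 12.99 in control and 12.57 to 12.62 in diabetic retinas. It fell by 0.30 on the log2 scale (SE 0.03, adjusted p = 0.00238, limma), with an adjusted p of 0.323 under median scaling. Within BeadChip 2 the adjusted p was 0.0969 for Gpd1 and 0.0803 for Got1, at differences of 1.12 and -0.28.

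In gluconeogenesis and glycogen turnover 1 of 8 genes rose and 1 fell. Pygl, the liver form of glycogen phosphorylase, had 9.47, 9.45, 9.44, 9.21 and 9.13 in control and 10.40, 10.07, 10.91 and 10.07 in diabetic retinas, again without overlap. It rose by 1.02 (SE 0.17, adjusted p = 0.0118, limma), with an adjusted p of 0.116 under median scaling and 0.144 within BeadChip 2. Pc, pyruvate carboxylase, fell by 0.26 on the log2 scale (SE 0.06, adjusted p = 0.0354, limma), with groups that overlapped. Its call was lost in 14 of 19 alternatives, with adjusted p from 0.0130 to 0.791.

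**Figure D4:**
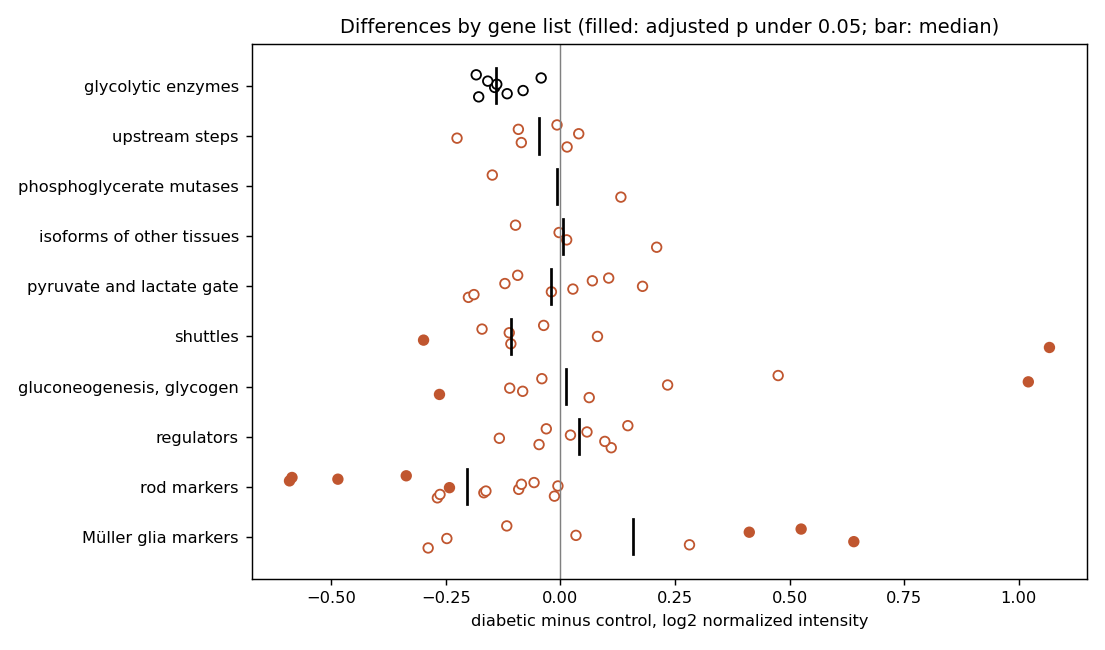
Diabetic minus control difference (x axis, log2 normalized intensity) of each tested gene in the glycolytic enzymes, the 7 pathway lists and the rod and Müller glia markers (y axis), with filled points for an adjusted p under 0.05 and a bar at the median of each list. The enzymes lie between -0.18 and -0.04 with none filled, while Gpd1 (1.07) and Pygl (1.02) stand out to the right.

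Some markers of retinal cells and of lens differed between the groups while others did not, and their part in the enzyme values was not tested. Of the rod markers 5 of 14 fell and 0 rose, 14 of 14 having a lower diabetic mean, with a median of -0.20. Their summed level was 132832 to 137692 in control and 122375 to 126827 in diabetic retinas on the linear scale, and Grk1, Crx, Reep6 and Nrl were among those that fell (by 0.34 to 0.59). With the BeadChip as a block 1 rod marker was called, and with median scaling 0, at medians of -0.20 and -0.18. Cone markers gave 1 of 7 lower (Thrb). Gnb3 (0.48) and Opn1sw (0.08) had a higher diabetic mean (adjusted p = 0.262 and 0.766, limma, named after their values were seen). Ganglion cell markers gave 5 of 11 lower (Nefm, Thy1, Nefl and Gap43 with the smallest p). The amacrine and bipolar list gave 1 of 13 lower (Otx2, a gene not particular to these cells). Called or not, the diabetic mean was lower for 5 of 7 cone, 10 of 11 ganglion cell and 13 of 13 amacrine and bipolar markers. Their medians were -0.17, -0.22 and -0.09, and 57.8% of all probes had a lower diabetic mean. Counts for cone, ganglion cell, and amacrine and bipolar markers were 1, 1 and 0 with the BeadChip as a block. With median scaling they were 0, 0 and 0. Of the Müller glia markers 3 of 8 rose (Vim, Dbi and Clu, at 0.41 to 0.64), while 3 of 8 had a lower diabetic mean (Rlbp1 -0.29, Apoe -0.25 and Car2 -0.12, adjusted p = 0.181, 0.256 and 0.189, limma; named after their values were seen). Without diabetic retina 1 the list gave 4 higher and 1 lower. The 8 had a summed level of 53765 to 57798 in control and 66963 to 72012 in diabetic retinas. Lens fibre markers rose for 7 of 10 genes (Cryge, Crygd, Bfsp1 and Lgsn with the smallest p). The summed level of the 10 was 38531 to 49256 in control and 92150 to 124101 in diabetic retinas, and diabetic retina 1 was the highest. Cryab (-0.05), Cryba1 (-0.09) and Mip (0.39) were not called (adjusted p = 0.412, 0.537 and 0.841, limma, named after their values were seen). Erythroid markers were 0 of 5 called (summed level 6376 to 16131 in control, 4890 to 12537 in diabetic), and muscle markers 0 of 3 (526 to 591 and 484 to 569), with Myh4, Tnni2, Actn3 and Mb not detected. Pigment epithelium gave 0 of 4 and endothelium 0 of 5.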

How the data were processed

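Retinal RNA was labelled and hybridised to RatRef-12 BeadChips, and bead signals were summarised in GenomeStudio 1.0.6, per the submitters' processing notes. The authors deposited a mean bead intensity per probe, linear and without normalization, and beside it a detection p-value. Their processed intensity values, deposited separately, are linear and quantile normalized.

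Here, background was corrected with normexp (limma 3.58.1, R 4.3.3; negative controls inferred from the detection p, offset 16), values were taken to log2 and arrays were quantile normalized. The 10261 probes detected (p under 0.05) on each array of either group were tested by a linear model with group as its term, moderated by empirical Bayes, two-sided. Thresholds were 0.05 after Benjamini-Hochberg adjustment. Each gene of a list was read by its brightest detected probe. Isoform differences were tested by exact permutation. The test was checked on simulated data. Figures were drawn with matplotlib 3.10.9 in Python 3.11.15.

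Of the probes 13192 carry 1 symbol, 0 several and 9034 none. Probe sequences were not used here, so probes that also bind close copies of a gene were not identified, and the enzymes have such copies. Replicates are separate rats, whose number limits the precision. Named genes are all members, the called genes of each list (at most 4, by smallest p), the gene with the smallest p of a pathway list with none called, and the 5 genes nearest in profile. Members and lists were chosen with earlier results of these data known. Alternatives, 19 in all, covered the authors' processed values, no background correction, median scaling, an offset of 50, detection p under 0.01, no detection filter, the BeadChip as a block, BeadChip 2 alone, a replicate block, the methods' t-test and each array left out.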

Additional observations from a re-analysis of the deposited data

Results flagged for a closer look

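In groups of 4 or 5 retinas, 22 sets of values were searched for a sample far from the others, and 2 held one; chance alone sets apart about 1 in 20 such sets. Both belong to diabetic retina 1. Its log2 normalized intensity of Eno1, 11.14, was far above the 10.54 to 10.62 of the other diabetic retinas. Its Aldoa minus Aldoc value, -0.37, was far above the -0.64 to -0.59 of the others.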

How the results depend on the processing

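The median difference of the 8 enzymes stayed below 0 in all 19 alternatives, and none was called higher in any; without diabetic retina 1, 2 were called lower (Aldoa -0.28, adjusted p = 0.0337; Eno1 -0.28, adjusted p = 0.00522), and 0 otherwise. Aldoc turned to 0.0061 with median scaling and Ldha to 0.031, and Ldha ran from -0.12 to 0.0061 when 1 array was left out, lying above 0 without control 2 (0.0061) or diabetic retina 3 (0.0028). The Eno1 minus Eno2 shift, near 0 throughout, turned to 0.00024 in the authors' processed values, 0.0053 without background correction, 0.031 with the BeadChip as a block, 0.037 within BeadChip 2, and ranged from -0.10 to 0.049 when 1 array was left out.

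Over all tested probes, 954 calls (457 lower, 52.1% higher) became 77 (10 lower, 87.0% higher) with median scaling. They became 179 (53 lower, 70.4% higher) with the BeadChip block and 11 (3 lower) within BeadChip 2. The methods' t-test, here at an adjusted p under 0.05 and without the fold criterion, gave 535 (212 lower). There were 578 (226 lower) without the detection filter, and 472 to 1015 with 1 array left out. Calls among the lists changed as follows. Phosphoglycerate mutases gave 1 (Pgam2) in the authors' processed values and without background correction. Shuttles gave 1 with median scaling and 0 within BeadChip 2. Gluconeogenesis and glycogen gave 0 in those settings, and 1 with the BeadChip block, the t-test or no detection filter. Rod markers gave 0 with median scaling or within BeadChip 2, and 1 with the block; cone, ganglion cell and amacrine and bipolar markers gave 0 with median scaling and within BeadChip 2. Ganglion cell markers gave 1 with the BeadChip block and 2 with the t-test or no filter, and amacrine and bipolar markers 0 with any of these. Müller glia markers gave 1 and lens markers 2 within BeadChip 2. With 1 array left out the counts were 0 to 1 for upstream steps, 0 to 1 for phosphoglycerate mutases, 1 to 2 for gluconeogenesis and glycogen, 3 to 5 for Müller glia, 1 to 5 for ganglion cells and 0 to 2 for amacrine and bipolar cells. The causes of these changes were not tested.

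Replicate numbers name separate rats: same-numbered pairs correlated at -0.08 to 0.16 over 4 pairs, and 1 of 4 diabetic retinas correlated best with its own number. With a replicate block 257 probes were called, 101 of them lower, with 0 of the 8 enzymes, 1 gene of gluconeogenesis and glycogen, 2 rod, 1 ganglion cell and 0 amacrine and bipolar markers, and the Eno1 minus Eno2 shift was -0.02. The block also ended the call of Pygl (adjusted p = 0.0533). Further probes of a member could not be tried, as each has 1. All 8 enzymes were detected on every array.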
